A study of Mus musculus with 82 samples.

Results

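Msgn1 and Tbx6 encode a pair of transcription factors of the presomitic mesoderm, and the peaks of 4 tagged T-box proteins around these genes are described here. The peaks were chosen by position: each peak of the EoGFP, BraGFP, EoV5 and EoVP16 lists whose midpoint lay within 100 kb of the span of either gene in the mouse build mm10 (GRCm38) was kept, and distances of 10 and 50 kb were read as well. There were 68 such peaks of 132113 in the 4 lists, 29 near Msgn1 and 39 near Tbx6. Per the labels, every construct was carried by mouse embryonic stem cells lacking both Eomes and Brachyury (dKO), grown as embryoid bodies (suspended cell aggregates) and harvested on day 5. All received activin A at 30 ng/ml, and doxycycline, which switches the construct on, from day 2. The labels give the doxycycline dose as 5 µg/ml in the growth protocol and the same figure in mg/ml in the treatment protocol, and the difference was not resolved here. The EoGFP and BraGFP proteins carried GFP on Eomes or on Brachyury and were pulled down with an anti-GFP antibody, with 2 libraries each behind a single deposited list. In EoV5 the tag on Eomes was V5, and in EoVP16 Eomes was fused with VP16, a strong viral activation domain. Each came from 1 library made with an anti-V5 antibody. The stem cells were of the line A2lox.Cre. Whether each construct line is a single clone, and how much protein was induced, is not given in the sources used here.

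The presomitic mesoderm is the unsegmented tissue beside the neural tube from which the somites, the blocks that form vertebrae and skeletal muscle, are cut off in a rhythm. Msgn1 (mesogenin 1) is a bHLH activator needed in the mouse for cells to leave the streak and mature as presomitic mesoderm, and it is known as a target of Wnt signalling. Tbx6 is a T-box factor, and mouse embryos without it form neural tissue in place of posterior somites. It is known to act with Notch signalling on Mesp2 and Dll1. Brachyury (gene symbol T) is needed for posterior mesoderm and Eomes for definitive endoderm and anterior mesoderm. Both bind the same T-box motif, so their peak lists are set side by side here.

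The lists differ in how they were thresholded, which touches every count below. The minimum pileup, the number of overlapping fragments at a peak's summit, was 120 in the EoGFP list, 40 in BraGFP, 60 in EoV5, and the lowest, 36, in EoVP16. These lists held 30129, 27588, 38193 and 36203 peaks. A gene or site without a peak may have been below that list's minimum or not called for another reason. A missing peak does not show that the protein was absent. With 1 list per construct there were no replicate values and no test between constructs, and the read depth is unknown from these files. No expression values were used here, so the identity of the cells as presomitic mesoderm was not checked. Positions are those of mm10 as written in the lists, in which the starts of EoGFP and BraGFP peaks may be counted from 0. The gene table used gives spans without exons, so places inside genes are not split into exon, intron and UTR.

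The promoters of Msgn1, Tbx6 and a pair of neighbours are shown because each was met by a different set of lists. Msgn1 lies on chromosome 12 (11208382 to 11208948, minus strand, gene ID 56184) and spans 567 bp. Tbx6 lies on chromosome 7 (126781483 to 126785548, plus strand, gene ID 21389) and spans 4066 bp. The windows run from 250 bases before to 50 bases after the annotated transcription start, 5′ to 3′ on the gene's strand, from RefSeq on GRCm38.p6. The Msgn1 window (chr12:11208899-11209198, minus) was met by a BraGFP peak and by no Eomes list. The Tbx6 window (chr7:126781233-126781532, plus) was met by none of the 4 lists. The window of Ypel3 (chr7:126776713-126777012, plus), the next coding gene upstream of Tbx6, was met by the 3 Eomes lists and not by BraGFP. The window of Gen1 (chr12:11265758-11266057, minus), the next coding gene upstream of Msgn1, was met by all 4. Capitals mark matches on either strand to CTTTGA, the core bound by TCF/LEF factors of the Wnt pathway, and to CAGAC, the element bound by SMAD factors of the activin pathway.
Msgn1: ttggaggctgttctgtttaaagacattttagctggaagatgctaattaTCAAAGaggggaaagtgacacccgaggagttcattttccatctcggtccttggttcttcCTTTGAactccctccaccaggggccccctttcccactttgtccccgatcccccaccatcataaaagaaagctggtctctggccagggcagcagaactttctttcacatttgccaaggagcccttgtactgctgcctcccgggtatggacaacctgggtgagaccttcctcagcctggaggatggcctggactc
Tbx6: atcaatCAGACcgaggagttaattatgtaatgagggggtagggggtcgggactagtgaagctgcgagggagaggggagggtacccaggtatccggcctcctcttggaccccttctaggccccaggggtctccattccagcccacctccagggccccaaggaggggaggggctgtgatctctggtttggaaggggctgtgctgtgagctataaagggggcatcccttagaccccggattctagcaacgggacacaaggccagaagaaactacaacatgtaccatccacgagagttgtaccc
Ypel3: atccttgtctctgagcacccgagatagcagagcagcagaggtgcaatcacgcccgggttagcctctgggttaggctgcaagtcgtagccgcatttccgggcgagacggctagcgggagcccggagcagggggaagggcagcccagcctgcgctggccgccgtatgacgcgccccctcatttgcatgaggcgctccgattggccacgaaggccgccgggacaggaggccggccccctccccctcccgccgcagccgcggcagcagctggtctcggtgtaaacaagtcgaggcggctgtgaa
Gen1: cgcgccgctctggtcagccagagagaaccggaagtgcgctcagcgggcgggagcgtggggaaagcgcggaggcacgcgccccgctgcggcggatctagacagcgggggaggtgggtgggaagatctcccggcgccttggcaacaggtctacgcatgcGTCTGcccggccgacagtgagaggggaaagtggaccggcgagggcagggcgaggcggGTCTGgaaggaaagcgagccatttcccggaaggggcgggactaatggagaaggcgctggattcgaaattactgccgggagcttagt

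The Msgn1 window held 2 TCF/LEF cores, beginning 202 bases before the start on the opposite strand and 143 bases before it on the gene's strand. At least 1 such core was in 16.0% of the 32851 promoter windows of the RefSeq table and 2 or more in 1.73%. The Tbx6 window held a SMAD element beginning 244 bases before the start, and 49.6% of all windows held at least 1. Gen1 held 2 SMAD elements (16.2% of windows held 2 or more), and Ypel3 held neither motif. The T-box motif AGGTGTGA (in 1.28% of all windows) and its core GGTGTG (19.0%) were also searched on both strands and were found in none of the 4 windows shown. An E-box, CANNTG, the site of bHLH factors such as Msgn1 itself, began 38 bases before the Msgn1 start and was absent from the Tbx6 window. E-boxes were in 72.3% of all windows. These matches describe letters in 300 bases and name no bound site.

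At the start of Msgn1 only the BraGFP list had a peak. The lists differ in tag, antibody and minimum pileup (40 in BraGFP, 120 in EoGFP) as well as in factor, and these cannot be told apart. The BraGFP peak there (chr12:11208402-11210221) was 1820 bp wide, covered 547 of the 567 bp of the gene and reached 1273 bp upstream of its start. Only 2.48% of BraGFP peaks were at least as wide. Of the 683 BraGFP peaks of at least this width, 53 (7.76%) overlapped no peak of an Eomes list. Among the 17492 coding genes with a RefSeq promoter window, 121 (0.692%) had a window met by BraGFP and by no Eomes list, as Msgn1 did. Ranked by the width of that BraGFP peak, Msgn1 was number 13 of these 121 genes. A window met by BraGFP at all was found for 21.8% of coding genes, against 42.1% for EoGFP, 32.2% for EoV5 and 52.6% for EoVP16. BraGFP met the fewest coding gene windows of the 4 lists, and it alone met that of Msgn1.

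Within 10 kb of Msgn1, with distance taken from peak midpoints, the BraGFP peak over the start was the only peak of the 4 lists. In the whole genome 53.0% of coding genes had at least 1 BraGFP peak within 10 kb. The shares were 65.2% for EoGFP, 62.2% for EoV5 and 71.1% for EoVP16, none of which had a peak that near to Msgn1. The next nearest peaks lay downstream of Msgn1, inside the non-coding gene 9530020I12Rik. An EoV5 peak 10.8 kb from the start, alone there, reached 62 fragments (95% Poisson interval 47.5 to 79.5), close to the minimum of its list. Its midpoint lay 10.2 kb from the span of Msgn1 and its nearest edge within 10 kb. A BraGFP peak 12.7 kb away, 501 bp wide, overlapped an EoVP16 peak of 37 fragments (26.1 to 51.0), also near its list's minimum.

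Farther out, Msgn1 was flanked by sites that carried Eomes peaks. Overlapping peaks of any lists were joined into sites, of which 14 lay within 100 kb of Msgn1. The most complete of them within 50 kb lay 30.9 kb downstream of the start (chr12:11176982-11179183), between Msgn1 and Kcns3, a potassium channel subunit gene. It held a peak of each list, in which EoV5 reached 452 fragments at its summit (411 to 496) and EoVP16 81 (64.3 to 101). Its EoGFP peak was 2089 bp wide, a width reached by 3.56% of that list, and its BraGFP peak was 1325 bp wide (8.54%). The ratio of EoV5 to EoVP16 pileup was 5.58, while the median over the 20280 EoV5 peaks that overlap an EoVP16 peak was 1.68. A ratio at least as high was found for 6.51% of those pairs. The summits of these peaks lay 25 bp apart.

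Upstream of Msgn1, 23.7 kb from the start, a site lacked EoVP16 (chr12:11232289-11232946). It held an EoGFP peak of 533 bp, a BraGFP peak of 640 bp and an EoV5 peak of 398 fragments (360 to 439). Only 4.72% of EoV5 peaks were at least this tall, and of those 1804 peaks 240 (13.3%) overlapped no EoVP16 peak. Beside it, 22.7 kb from the start, lay a BraGFP peak of 663 bp, and another of 378 bp lay 16.0 kb from the start, and neither met an Eomes list. With the peak over the start, BraGFP had 4 peaks on this side within 50 kb, EoGFP 1, EoV5 1 and EoVP16 0.

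Between 50 and 100 kb from Msgn1 the sites with the most lists lay at or in other genes. The site 56.9 kb upstream covered the starts of Gen1, a DNA resolvase gene, and Smc6, a gene of the SMC5/6 complex, and held all 4 lists, where EoV5 reached 106 fragments (86.8 to 128) and EoVP16 104 (85.0 to 126). The site 59.2 kb downstream covered the Kcns3 start and held EoGFP, BraGFP and EoVP16 with 49 fragments (36.3 to 64.8), but no EoV5 peak. The tallest EoV5 and EoVP16 peaks of the whole region lay 87.6 kb downstream, inside Kcns3 (chr12:11120417-11122248). EoV5 reached 538 fragments there (493 to 585), a height met by 2.45% of its list, and EoVP16 253 (223 to 286), met by 0.773%. There were 2 EoGFP peaks at that site and no BraGFP peak. The remaining sites downstream were low or narrow, an EoGFP peak of 420 bp with EoVP16 at 65 fragments (50.2 to 82.8) 54.9 kb away, a BraGFP peak of 242 bp at 60.7 kb, EoV5 alone at 69.3 kb with 76 (59.9 to 95.1) and EoVP16 alone at 82.3 kb with 39 (27.7 to 53.3). The tallest EoV5 and EoVP16 peaks near Msgn1 and the widest BraGFP peak near it lay at separate places, but height and width are unlike measures. By width, the largest EoV5 (2183 bp) and EoVP16 (1968 bp) peaks lay at the Gen1 and Smc6 starts, where BraGFP had a peak of 1727 bp. The widest EoGFP peak (2089 bp) overlapped a BraGFP peak of 1325 bp at 30.9 kb. No Eomes list met the widest BraGFP peak (1820 bp).

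**Figure D1:**
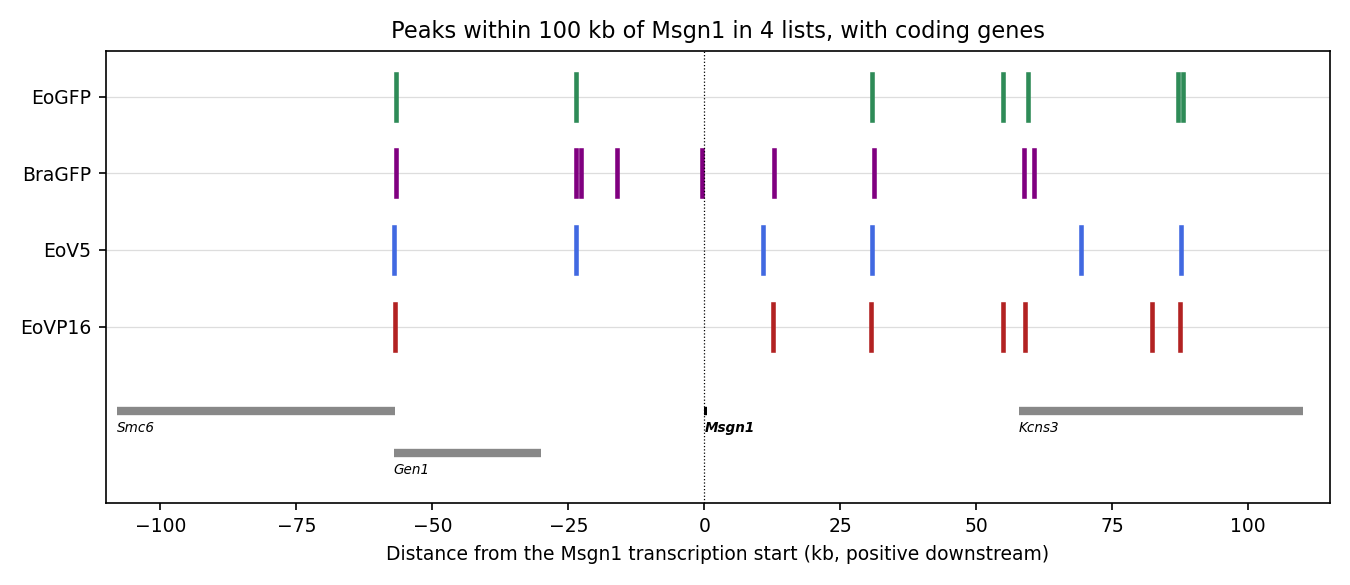
Peaks within 100 kb of Msgn1, with distance from its transcription start in kb on the x axis (positive is downstream) and 1 row per list; each tick is the midpoint of a peak and grey bars are coding genes, cut at the edge of the plot. At the dotted line, the Msgn1 start, only BraGFP has a peak; at 30.9 kb and -56.9 kb all 4 lists do.

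In total, the 14 sites of Msgn1 held peaks of 1 list in 7 cases, of 2 lists in 2, of 3 lists in 3 and of 4 lists in 2. BraGFP stood alone at 4 of them, EoV5 at 2, EoVP16 at 1 and EoGFP at 0. How often sites of 1, 2, 3 or 4 lists occur over the whole genome was not computed. The 4 BraGFP peaks without an Eomes list were 4 of its 9 within 100 kb, while 60.0% of all BraGFP peaks overlapped no Eomes list, so the share near Msgn1 was not above that of the whole list. Of the 7 EoGFP peaks, 2 overlapped all 3 other lists, against 20.1% of all EoGFP peaks. Only 4 of the 29 peaks had Msgn1 as their nearest coding gene, 2 from BraGFP, 1 from EoV5, 1 from EoVP16 and 0 from EoGFP. The others were nearest to Kcns3, Gen1 or Smc6.

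Tbx6 showed another arrangement, with peaks before and behind the gene and none on its promoter. A promoter window met by none of the 4 lists was found for 44.8% of coding genes. The nearest upstream site lay 1.1 kb before the start (chr7:126779788-126780999), at the end of Ypel3, which is separated from Tbx6 by 973 bp. Its peaks had their midpoints and summits inside Ypel3, their nearest coding gene. This site held EoV5 with 127 fragments (106 to 151) and EoVP16 with 84 (67.0 to 104), with summits 88 bp apart, and neither GFP list. Of all EoV5 peaks 8.12% shared this pattern, an EoVP16 overlap and no EoGFP or BraGFP overlap. Near Tbx6 it was 1 of 7 EoV5 peaks.

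The tallest EoV5 and EoVP16 peaks near Tbx6 covered the Ypel3 start, 4.8 kb upstream (chr7:126775756-126777540). EoV5 had 260 fragments there (229 to 294), EoVP16 125 (104 to 149), and the EoGFP peak was 1260 bp wide, while BraGFP had no peak. Heights at least as great were found for 10.9% of EoV5 and 5.51% of EoVP16 peaks. The promoter pattern of the 3 Eomes lists without BraGFP, seen at Ypel3, was shared by 12.7% of coding genes with a window. Ypel3, a member of the yippee-like family, is nearer to this site than Tbx6 is.

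The only peaks that touched Tbx6 itself lay at its 3′ end, 3.9 kb from the start (chr7:126784886-126785812), where Ppp4c, a phosphatase subunit gene, ends 318 bp away. The BraGFP peak was 927 bp wide, with 663 bp inside Tbx6, and 22.0% of BraGFP peaks were at least as wide. The EoGFP peak of 713 bp had 560 bp inside the gene, and 67.0% of its list was at least as wide. EoVP16 reached 37 fragments (26.1 to 51.0), 1 above the minimum of its list, and EoV5 had no peak there. EoGFP with BraGFP and EoVP16 but without EoV5 was found for 3.56% of EoGFP peaks. Near Tbx6 it was the pattern of 3 of 11 EoGFP peaks and near Msgn1 of 1 of 7. The other cases, apart from the 3′ end of Tbx6, all lay at sites that covered the start of another gene. Only BraGFP met the start of Msgn1, while BraGFP, EoGFP and EoVP16 all met the end of Tbx6.

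**Figure D2:**
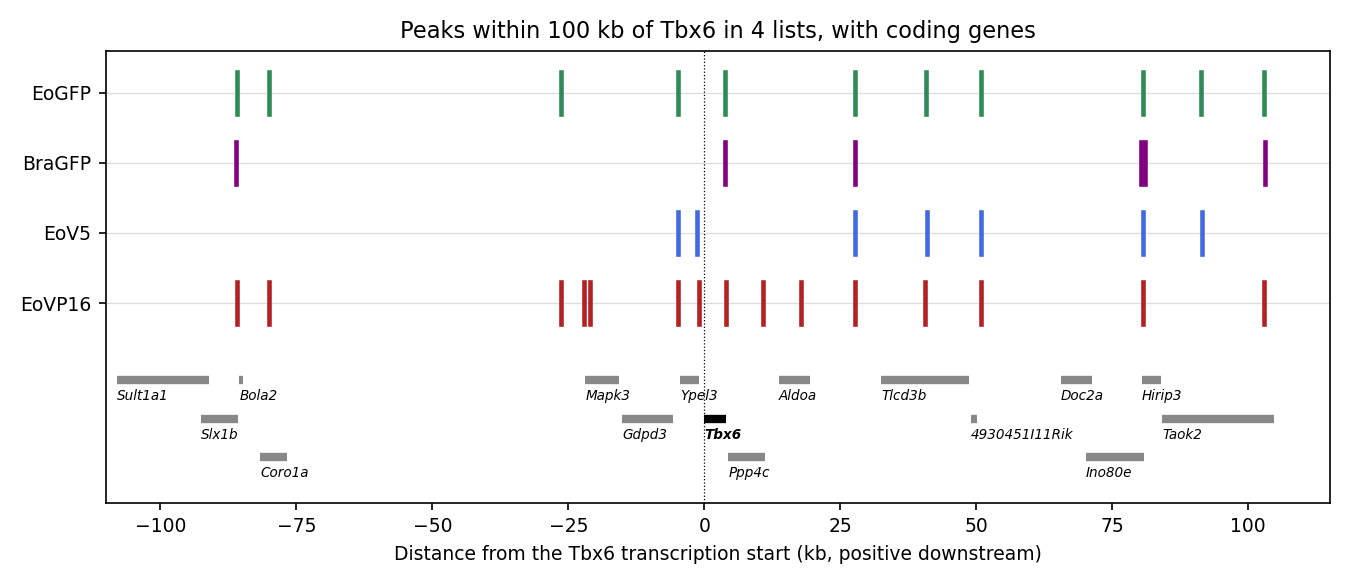
Peaks within 100 kb of Tbx6, drawn as for Msgn1: distance from the Tbx6 transcription start in kb on the x axis, 1 row per list, ticks at peak midpoints and grey bars for coding genes. EoV5 and EoVP16 peaks lie just before the start, EoGFP, BraGFP and EoVP16 peaks at the end of the gene, and the EoVP16 row is the densest with 15 ticks.

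Downstream of Tbx6, several peaks covered the starts of neighbouring genes. EoVP16 alone covered the starts of Ppp4c, 10.7 kb from the Tbx6 start with 49 fragments (36.3 to 64.8), and of Aldoa, a glycolytic enzyme gene, 17.8 kb away with 56 (42.3 to 72.7). The site 27.7 kb downstream (chr7:126808688-126809642), before Tlcd3b, held all 4 lists and covered no gene start. EoV5 had 75 fragments there (59.0 to 94.0) and EoVP16 91 (73.3 to 112), a ratio of 0.824, which 95.8% of EoV5 and EoVP16 pairs equalled or exceeded. This site stood at the other end of the range from the 4-list site of Msgn1 at 30.9 kb, where the ratio was 5.58.

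The remaining sites of Tbx6 lay nearest to other genes. Eomes lists without BraGFP were found 40.9 kb downstream in Tlcd3b, with 95 EoV5 fragments (76.9 to 116), and 50.8 kb downstream beside 4930451I11Rik, with 133 (111 to 158). All 4 lists met 80.6 kb downstream at the starts of Hirip3 and Ino80e, a gene of the INO80 chromatin remodeller, where BraGFP had 2 peaks. EoGFP, BraGFP and EoVP16 covered the Taok2 start 103.0 kb downstream, which is 98.9 kb from the end of Tbx6, and the starts of Bola2 and Slx1b 86.0 kb upstream. EoVP16 peaks of 37 to 41 fragments lay at Coro1a and around Mapk3, the ERK1 kinase gene, upstream, where EoGFP shared 2 of 4. A site 91.4 kb downstream, nearest to Taok2, held EoGFP and EoV5 with 110 fragments (90.4 to 133) and was the only one of the 16 sites without EoVP16. Of the 39 peaks, 3 had Tbx6 as their nearest coding gene, all at its 3′ end.

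In total there were 16 sites within 100 kb of Tbx6, with peaks of 1 list at 4, 2 lists at 4, 3 lists at 6 and all 4 lists at 2. EoVP16 stood alone at 4 sites and no other list did at any. Those 4 peaks had 37 to 56 fragments, where the list's minimum was 36 and its median 54. Tallies by number of lists, or of 1 list alone, were not computed over the whole genome. Eomes lists without BraGFP made up 11 of the 16 sites of Tbx6 and 5 of the 14 of Msgn1, against 61.9% of the 71918 sites made in the same way over the whole genome. Of the 6 BraGFP peaks of Tbx6, 0 were without an Eomes list, against 60.0% of all BraGFP peaks. Those at Bola2 and Slx1b, at Hirip3 and Ino80e and at Taok2 covered gene starts, where the share over all peaks is not a like measure. Of the 3809 coding genes with a promoter window met by BraGFP, 121 had no Eomes list there. A coding gene start was covered at 6 sites of Tbx6 and 3 of Msgn1. Within 100 kb there were 15 other coding genes around Tbx6 and 3 around Msgn1, with a median of 4 over all coding genes, and the part of this density in the counts was not tested.

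**Figure D3:**
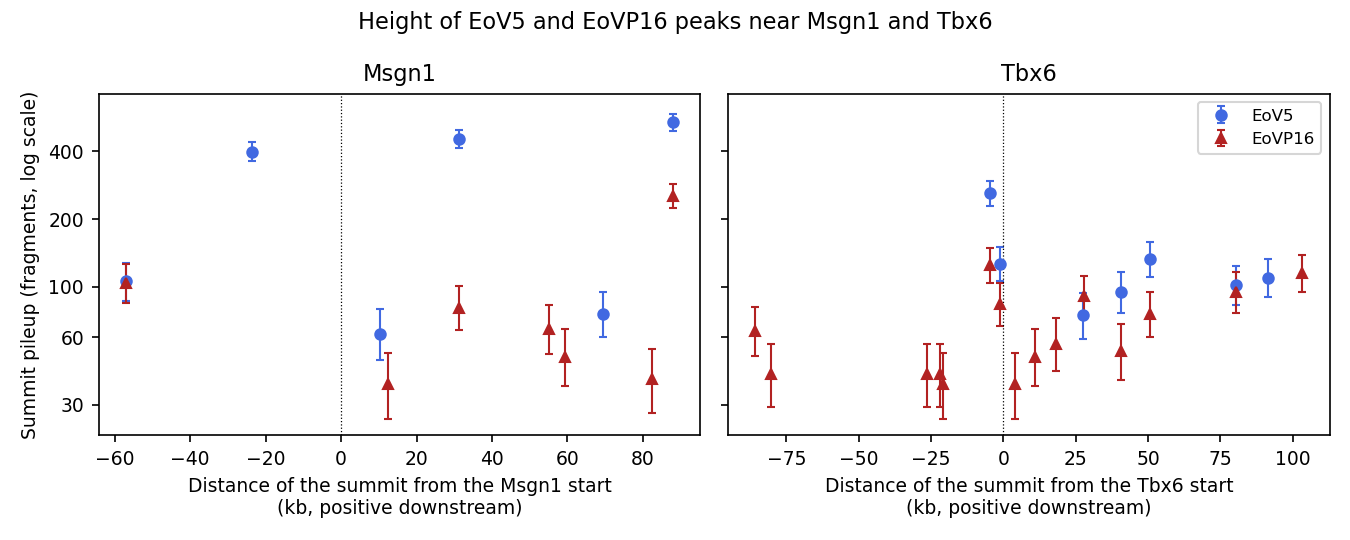
Summit pileup in fragments (log scale) of each EoV5 peak (circles) and EoVP16 peak (triangles) within 100 kb of Msgn1 (left) and Tbx6 (right) against the distance of the summit from the gene's start in kb; bars are exact 95% Poisson intervals, which cover counting error only. Msgn1 has 3 EoV5 peaks of 398 to 538 fragments and Tbx6 has 1 above 200, at 260.

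EoV5 peaks near Msgn1 included taller ones than those near Tbx6. The 6 EoV5 peaks of Msgn1 had 538, 76, 452, 62, 398 and 106 fragments in order along the chromosome. The 7 of Tbx6 had 260, 127, 75, 95, 133, 102 and 110, while the median of the whole EoV5 list was 99. The only EoV5 peak with Msgn1 as its nearest coding gene was the one of 62 fragments. The heights of 538, 452 and 398 near Msgn1 lay above every one near Tbx6. Of these, 538 lay inside Kcns3, 452 was nearest to Kcns3 and 398 to Gen1. Fold enrichment at the summit, as the authors' lists give it, was 76.9, 64.6 and 56.9 at these 3 peaks, 37.2 at the Ypel3 start and 14.1 at the median. EoVP16 pileups were 37 to 253 near Msgn1 and 37 to 125 near Tbx6, with a list median of 54.

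Set against all 21887 coding genes, Msgn1 was high in BraGFP and, within 50 kb, at or below the median in the Eomes lists. Within 50 kb it had 6 BraGFP peaks, and 8.65% of coding genes had as many or more (median 2). In the wider 50% of the BraGFP list the count of Msgn1 was 4. At least 1 BraGFP peak lay within 50 kb of 76.5% of coding genes. EoGFP had 2 peaks (median 3), EoV5 3 (median 3) and EoVP16 2 (median 3), counts that 67.0%, 52.8% and 72.2% of coding genes reached. The shares with at least 1 such peak were 81.1%, 83.0% and 84.2%. Within 100 kb Msgn1 had 9 BraGFP peaks, reached by 7.51% of coding genes (median 4). Beside them were 7 EoGFP, 6 EoV5 and 7 EoVP16 peaks, above the medians of 5, 5 and 6. These counts were reached by 32.1%, 43.9% and 42.3% of coding genes.

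Tbx6 was high in EoVP16 and EoGFP and, within 50 kb, at the median in BraGFP. It had 11 EoVP16 peaks within 50 kb, and 2.87% of coding genes had as many or more. This count rests in part on low peaks, since 4 of the 11 had 37 to 41 fragments, where the list's minimum was 36. It was 5 in the taller 50% of the list and 7 with lists of equal length ranked by height. Its 6 EoGFP and 5 EoV5 peaks were reached by 15.9% and 25.5%, and its 2 BraGFP peaks by 57.6%. Within 10 kb it had 2 EoGFP peaks, 1 BraGFP, 2 EoV5 and 4 EoVP16, where the median was 1 in each list. Within 100 kb the counts were 11, 6, 7 and 15. Its EoGFP, EoV5 and EoVP16 counts were reached by 8.38%, 33.5% and 5.32% of coding genes, and 73.0% had fewer BraGFP peaks. The shares of coding genes with at least 1 peak were 87.2%, 85.3%, 89.9% and 89.6%. At that distance most coding genes had a peak, as both genes did. The nearest peaks left out lay 108.9 to 166.4 kb from Msgn1 and 111.0 to 112.7 kb from Tbx6, while the farthest kept were at 60.1 to 87.4 kb and 87.4 to 99.0 kb.

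**Figure D4:**
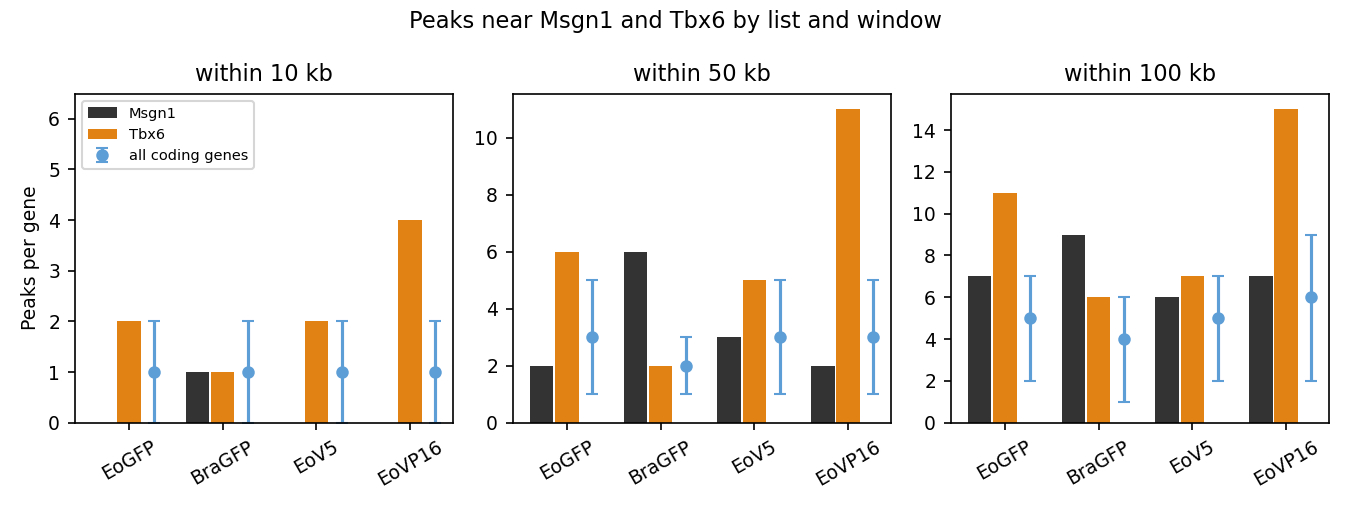
Number of peaks per gene within 10, 50 and 100 kb, by list, for Msgn1 (black bars), Tbx6 (orange bars) and all coding genes (blue point for the median, bars for the interquartile range); a missing bar is a count of 0. Msgn1 exceeds the range in BraGFP at 50 and 100 kb, and Tbx6 in EoVP16 in all 3 windows and in EoGFP at 50 and 100 kb.

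Sharing between lists within 50 kb rested on few peaks. Both EoGFP peaks of Msgn1 met a BraGFP peak and 2 of the 6 of Tbx6 did, against 27.1% of all EoGFP peaks. EoV5 peaks met EoGFP in 2 of 3 cases at Msgn1 and 4 of 5 at Tbx6, against 61.2% of the EoV5 list. EoVP16 peaks met EoV5 in 1 of 2 cases at Msgn1 and 5 of 11 at Tbx6, against 56.9% of the EoVP16 list. The authors' merged list of EoGFP and BraGFP, made from these lists, held 12 regions near Msgn1, of which 4 carried both, 3 EoGFP and 5 BraGFP. Near Tbx6 it held 11 regions, of which 5 carried both, 6 EoGFP and 0 BraGFP. Over the whole merged list 16.2% of the 49484 regions carried both, 44.4% EoGFP alone and 39.4% BraGFP alone.

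The genes most like Msgn1 and Tbx6 in their peak counts were sought over 12 counts, the 4 lists in bands of 0 to 10, 10 to 50 and 50 to 100 kb. Likeness was the smallest sum of absolute differences, leaving out genes within 200 kb of the member. Nlrc3 was nearest to Msgn1 with a sum of 6, and Acte1 and Aoc1 followed with 7, a value that 10 genes shared, against a median of 23 over all coding genes. Unlike Msgn1, Nlrc3 had 0 BraGFP peaks within 10 kb and 2 between 10 and 50 kb. Cdc34 (5), Reep6 (6) and Proca1 (7) were nearest to Tbx6, against a median of 26. None of these 6 genes was in the presomitic list described next.

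Other genes of the presomitic mesoderm and its precursors were read from a list of 30 in 5 roles. Of these, 29 had an EoGFP peak within 50 kb, 27 a BraGFP peak, 30 an EoV5 peak and 29 an EoVP16 peak. These were 96.7%, 90.0%, 100% and 96.7% of the list, against 81.1%, 76.5%, 83.0% and 84.2% of all coding genes. Their median counts were 3, 3, 3 and 4.5, and over all coding genes 3, 2, 3 and 3. Cdx4, a caudal homeobox gene of the tail bud, had no EoGFP or EoVP16 peak, 3 BraGFP and 2 EoV5 peaks. Evx1, Lfng and Pcdh8 had no BraGFP peak within 50 kb. Within 10 kb the numbers with a peak were 24, 18, 25 and 24 of 30 (80.0%, 60.0%, 83.3% and 80.0%), against 65.2%, 53.0%, 62.2% and 71.1% of all coding genes.

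By role, all 7 presomitic factors, all 5 posterior signals and all 5 somite genes had peaks of all 4 lists within 50 kb. Each single list had a peak within 50 kb of 76.5% to 84.2% of all coding genes. The share with all 4 lists was not computed, so these full counts are not read as a trait of a role. The presomitic factors were Mesp2, Foxc1, Foxc2, Snai1, Hes7, Ripply1 and Ripply2, with medians of 4 EoGFP, 4 BraGFP, 3 EoV5 and 6 EoVP16 peaks. Hes7, a repressor of the segmentation clock, had 10, 6, 7 and 14 peaks in this order of lists, and Mesp2, the segment boundary factor downstream of Tbx6 in the mouse, had 8, 4, 5 and 6. The 7 Notch and segmentation genes had medians of 5, 5, 4 and 7. Dll1, a Notch ligand of the presomitic mesoderm, had 5, 5, 4 and 6 peaks. Epha4, a boundary receptor, had 6, 8, 9 and 10, with 8 BraGFP peaks inside the gene or within 10 kb of its span.

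Among the signals, the early factors and the somite genes, the list with the most peaks differed from gene to gene. Of the posterior signals, Wnt3a had 9, 2, 7 and 10 peaks within 50 kb and Fgf8 had 3, 6, 2 and 4. The 6 neuromesodermal and streak factors had a median of 1.5 BraGFP peaks, and T itself had 4, 5, 2 and 6. The 5 somite genes had medians of 2, 4, 2 and 3, and Pax3 had 2, 6, 4 and 6. BraGFP had more peaks than each Eomes list at 5 of the 30 genes, as it did at Msgn1 (2, 6, 3 and 2). They were Fgf8, Cdx4, Ripply2 (2, 4, 1 and 3), Meox1 (1, 4, 1 and 3) and Aldh1a2 (1, 5, 2 and 2). These are counts of deposited peaks, and the differences between genes were not tested. How many of all coding genes have BraGFP above each Eomes list was not computed. The 5 of 30 therefore cannot be read as particular to this list or as a likeness to Msgn1.

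**Figure D5:**
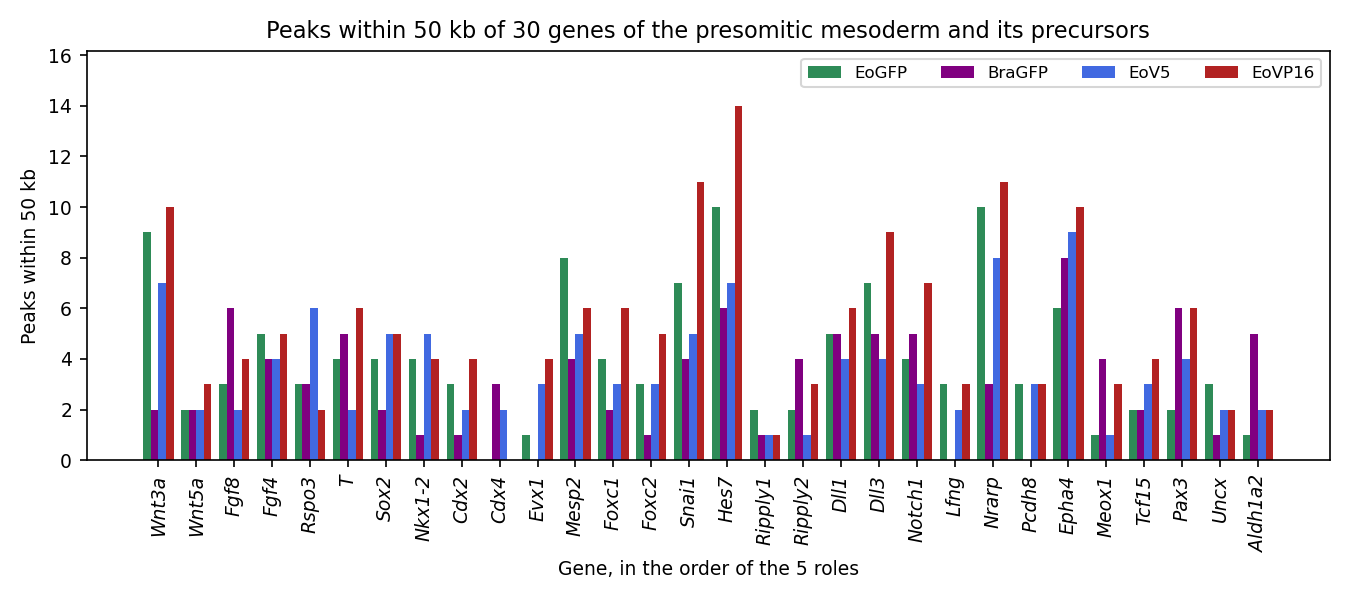
Number of peaks within 50 kb (y axis) of each of the 30 genes of the presomitic list, by list (colours), from posterior signals on the left to somite genes on the right. Hes7 has the highest bar with 14 EoVP16 peaks, and BraGFP lies above EoGFP at 9 genes, Fgf8, T, Cdx4, Ripply2, Notch1, Epha4, Meox1, Pax3 and Aldh1a2. How many of all coding genes have BraGFP above EoGFP was not computed.

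The promoters of the presomitic list were read in the same way as those of Msgn1 and Tbx6. RefSeq windows were matched for 23 of the 30 genes, all but Wnt5a, Fgf8, Rspo3, Foxc2, Meox1, Tcf15 and Pax3. EoGFP met 11 of the 23 windows, BraGFP 7, EoV5 12 and EoVP16 15 (47.8%, 30.4%, 52.2% and 65.2%), against 42.1%, 21.8%, 32.2% and 52.6% of coding genes. Each of the 7 BraGFP windows, those of Mesp2, Foxc1, Ripply1, Ripply2, Dll1, Dll3 and Notch1, was also met by an Eomes list, and 6 of them by all 3. This was the usual case, since of the 3809 coding genes with a window met by BraGFP only 121 had no Eomes list there. The share of these 3809 met by all 3 Eomes lists was not computed. The number met by BraGFP and by no Eomes list, as at Msgn1, was 0 of 23, against 0.692% of coding genes, a share too low for anything to be read from 0 of 23.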

How the data were processed

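ChIP-seq peak lists of 4 constructs, as deposited, were used with the list into which the authors merged EoGFP and BraGFP. Other libraries of the series were not used here. Titles gave each sample's construct and treatment. The submitters' processing notes name MACS2 2.1.1.20160309.4, bedtools 2.27.0, Bowtie2 2.3.4, SAMtools 1.3.1 and Picard 1.56.0 with mm10/GRCm38, in no order and with no settings. The minimum pileups come from the names of the deposited lists, and how libraries were joined is not stated. For EoGFP, BraGFP and their merge, only positions were deposited, so width stood in for height. In the deposited EoV5 and EoVP16 lists the signal column is the summit pileup, in fragments, and the deposited ratio is the fold enrichment over the caller's background. Neither was scaled to depth here, so ratios between lists are descriptive.

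Entries on unplaced contigs (4, 7, 7 and 6) and repeated entries (12, 4, 46 and 26) were dropped. Gene spans came from a RefSeq table of GRCm38.p6 (21887 coding genes), and strands and starts from its promoter table. Distance was that of a peak's midpoint from the span of a gene, or from its start where stated. Peaks sharing at least 1 bp overlapped. Pileups carry exact 95% Poisson intervals, which cover counting error only. The counting code was tested on simulated data.

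Named genes were Msgn1, Tbx6, the coding genes nearest to their peaks, the presomitic list, and the 3 genes most alike for each member, with ties in alphabetical order. The members and lists were chosen with earlier results of these data known, so nothing was tested. Python 3.11.15, pandas 2.3.3 and scipy 1.17.1 were used.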

Additional observations from a re-analysis of the deposited data

How the results depend on the processing

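The counts of peaks within 100 kb of Msgn1 and Tbx6 were recomputed under 6 other settings. Keeping only the wider 50% of EoGFP and BraGFP and the taller 50% of EoV5 and EoVP16 moved 4 of them by more than 1.5 times, and 12 of the 24 counts over the windows of 10, 50 and 100 kb stayed within that. EoGFP fell to 3 peaks at Msgn1 and 7 at Tbx6, and EoVP16 to 4 at Msgn1 and 8 at Tbx6, as that setting removes peaks by construction. Within 50 kb Msgn1 then had 1 EoGFP and 1 EoVP16 peak, and Tbx6 3 EoGFP, 1 BraGFP, 3 EoV5 and 5 EoVP16. Within 10 kb Tbx6 had 1 EoGFP and 2 EoVP16 peaks. With distance measured to the transcription start, lists of equal length (27588 widest peaks) or repeated entries counted, all 24 counts over the 3 windows stayed within 1.5 times. With distance from the nearest edge of a peak 23 of 24 did. The exception was Msgn1, which then had 1 EoV5 peak within 10 kb. Ranking EoV5 and EoVP16 by height for equal length, a setting chosen after seeing the data, kept 22 of 24, and EoVP16 within 50 kb fell to 1 at Msgn1 and 7 at Tbx6. Sharing between lists kept all 8 counts when an overlap of 50% of the shorter peak, or midpoints within 500 bp, was asked for. No paired analysis was possible because each construct has a single list. The unknown depth and the unequal minimum pileups limit every comparison between lists.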
